A study of Mus musculus with 12 samples.

Results

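The Ly6 genes examined here were 5 genes of mouse lymphocyte antigen 6 family, Ly6c1, Ly6c2, Ly6i, Ly6a and Ly6e, chosen by name from the 11786 genes of the deposited expression table. All 5 had a row in the table and all 5 were among the 11785 genes tested. They were chosen with results of these libraries already known, so their own values are given as a description. No p-value of a member is reported. Which members passed the threshold used for all genes is only listed and counted. Ly6 proteins are small cell surface proteins held in the membrane by a glycosylphosphatidylinositol (GPI) anchor, and they share a compact fold braced by disulfide bonds. Ly6c1 and Ly6c2 encode the Ly6C antigen, which is high on inflammatory monocytes, the blood cells from which many dendritic cells in culture derive. Several Ly6 genes are induced by interferon, and Ly6a encodes Sca-1, a surface marker of mouse blood stem cells that interferon also raises on many other cells.

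RNA was sequenced from mouse bone marrow cells that GM-CSF, a myeloid growth factor, had turned into dendritic cells in culture. There were 4 groups of 2 libraries: cells labelled Ythdf1-/- after overnight culture with necrotic B16-OVA cells, cells labelled Ythdf1-/- alone, wild-type cells after the same culture, and wild-type cells alone. B16-OVA is a mouse melanoma line that carries ovalbumin, the labels call the condition tumor lysate, and the dendritic cells were purified after culture. The other 4 samples of the series, RNA immunoprecipitations with an antibody against YTHDF1, were not analysed here. YTHDF1 is a cytoplasmic reader of N6-methyladenosine, a mark on mRNA. Whether the paired libraries of each group trace back to different mice or cultures is not stated, so every error and p-value reflects the spread among these 8 libraries, which may be technical.

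The targeted gene did not separate the genotype labels. Ythdf1 had log2 levels of 9.51 and 9.46 in KO-labelled cells with lysate, 9.53 and 9.43 in KO-labelled cells alone, 9.72 and 9.58 in wild-type cells with lysate and 9.58 and 9.43 in wild-type cells alone. The KO-labelled minus wild-type difference was -0.03 ± 0.081 (SE) alone (limma adjusted p = 0.85) and -0.16 ± 0.081 with lysate (limma adjusted p = 0.202). A deletion can leave a transcript in place, and the labels do not say which part of the gene was changed, so this level checks neither label. Genotype directions below are those of the libraries labelled Ythdf1-/-, called KO-labelled.

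The values were in log2 units on the authors' scale, with library medians between 8.53 and 8.55. They carry no read count, and library depth is therefore unknown. Between the 2 libraries of a group, the SD across genes of the difference was 0.112 in KO-labelled cells with lysate, 0.161 in KO-labelled cells alone, 0.143 in wild-type cells with lysate and 0.139 in wild-type cells alone. Of 14 listed markers of conventional dendritic cells, 12 had a value, among them the class II gene H2-Ab1 (14.0 to 14.6 over group means) and Zbtb46, a transcription factor of that lineage, which averaged 9.60 in KO-labelled cells alone and 9.18 in wild-type cells alone. Levels are not scaled to transcript length, so they are compared within a gene; the Ly6c2 minus Ly6c1 difference is given only to show how it varies over the libraries.

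Ly6c1 and Ly6c2 are near copies, and their coding sequences show where reads of one can be told from those of the other. The first 300 of the 393 coding bases of each reference transcript are shown, with the 7 bases that differ between them in capitals.
Ly6c1: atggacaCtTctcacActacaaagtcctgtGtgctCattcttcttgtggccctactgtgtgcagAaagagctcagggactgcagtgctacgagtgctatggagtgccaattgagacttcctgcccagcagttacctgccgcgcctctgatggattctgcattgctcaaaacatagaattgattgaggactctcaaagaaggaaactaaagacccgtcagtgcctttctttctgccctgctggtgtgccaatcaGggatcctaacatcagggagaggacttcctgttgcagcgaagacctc
Ly6c2: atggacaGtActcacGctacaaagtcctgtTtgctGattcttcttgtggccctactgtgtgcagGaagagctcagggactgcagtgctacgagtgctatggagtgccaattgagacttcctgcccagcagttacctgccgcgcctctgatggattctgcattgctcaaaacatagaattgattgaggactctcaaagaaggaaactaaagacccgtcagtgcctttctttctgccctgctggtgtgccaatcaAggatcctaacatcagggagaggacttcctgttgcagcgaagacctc
Over the whole coding sequence, 384 of 393 bases were identical (97.7%). Of the 795 stretches of 50 bases in the Ly6c1 transcript, 252 also occurred in the Ly6c2 transcript and 503 occurred in no other gene. Of the 773 such stretches in the Ly6c2 transcript, 518 occurred in no other gene. How the authors' counting placed reads that fit both copies is not known here, so the 2 genes are not independent measurements. Coding identity was 86.3% between Ly6i and Ly6a, 81.8% between Ly6c1 and Ly6a and 81.6% between Ly6c1 and Ly6i. Ly6e was the most distant, with 50.1% to 53.5% identity to the other 4, and none of its 2232 stretches of 50 bases was found in another gene. The Ly6i and Ly6a transcripts shared 4.97% and 8.05% of their stretches with other genes.

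Upstream of the start, Ly6c1 and Ly6c2 differ more than in their coding sequence. Both genes lie on the minus strand of chromosome 15 in the assembly GRCm38.p6, and the windows shown hold 250 bases before and 50 bases after a RefSeq start. They are printed to set the near copies side by side. Capitals mark the letters GAGGAAGT, a form of the sites bound by PU.1, a transcription factor of myeloid cells. These letters were chosen after the sequences were seen, and shorter or other forms of the site were not searched.
Ly6c1 (chr15:75048788-75049087): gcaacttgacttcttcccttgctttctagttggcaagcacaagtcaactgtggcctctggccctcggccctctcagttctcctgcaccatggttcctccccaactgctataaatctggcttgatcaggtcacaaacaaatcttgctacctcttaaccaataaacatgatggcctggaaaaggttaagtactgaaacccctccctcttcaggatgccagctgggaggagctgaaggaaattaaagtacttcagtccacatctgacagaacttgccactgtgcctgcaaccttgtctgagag
Ly6c2 (chr15:75111922-75112221): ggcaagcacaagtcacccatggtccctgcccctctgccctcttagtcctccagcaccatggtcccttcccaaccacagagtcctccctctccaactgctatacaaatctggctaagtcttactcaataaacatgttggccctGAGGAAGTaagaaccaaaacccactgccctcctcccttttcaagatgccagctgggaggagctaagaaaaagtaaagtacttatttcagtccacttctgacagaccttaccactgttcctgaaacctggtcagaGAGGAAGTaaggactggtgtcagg
Aligned over 282 shared positions, 208 bases were identical (73.8%). All motifs were searched on both strands, and no 2 matches overlapped. The Ly6c1 window held no GAGGAAGT and the Ly6c2 window held 2, which began at bases 143 and 277. RefSeq lists a further start for each gene, and that window held 1 match for Ly6c1 and 2 for Ly6c2. The further Ly6c2 window (chr15:75111888-75112187) overlaps the printed one, and its 2 matches are the same sites. The difference therefore depends on which Ly6c1 start is taken. The same letters occurred in 3.2% of 32851 mouse promoter windows of this length. Letters of the interferon-gamma activated site (TTCNNNGAA, in 8.3% of windows) and of the interferon-stimulated response element (GAAA, any 2 bases, GAAA, in 3.44%) had no match in either printed window. A match is a description of the letters and not evidence of binding.

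The Ly6 genes were lower in KO-labelled than in wild-type dendritic cells when no lysate was added. Ly6c1 was 2.62-fold lower, Ly6c2 2.42-fold, Ly6i 1.92-fold, Ly6e 1.67-fold and Ly6a 1.24-fold. In wild-type cells, culture with lysate was also accompanied by lower levels of all 5, whereas in KO-labelled cells the 5 levels with and without lysate lay close together. In bulk RNA, fewer cells that carry a transcript and less of it per cell cannot be told apart.

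Ly6c1 had log2 levels of 8.47 and 8.60 in KO-labelled cells with lysate, 8.51 and 8.44 in KO-labelled cells alone, 9.25 and 9.15 in wild-type cells with lysate and 9.81 and 9.93 in wild-type cells alone. Wild-type cells alone were highest, wild-type cells with lysate came next without overlap, and the 2 KO-labelled groups lay lowest and overlapped each other. The KO-labelled minus wild-type difference was -1.39 ± 0.082 (SE, 2 libraries a group) alone and -0.66 ± 0.082 with lysate. The alone difference was the 9th lowest of the 11785 genes. The lysate minus alone difference was 0.06 ± 0.082 in KO-labelled cells and -0.67 ± 0.082 in wild-type cells.

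Ly6c2, the copy named in most work on monocytes, had log2 levels of 10.16 and 10.20 in KO-labelled cells with lysate, 10.13 and 10.07 in KO-labelled cells alone, 10.84 and 10.71 in wild-type cells with lysate and 11.33 and 11.41 in wild-type cells alone. The order of the groups was that of Ly6c1, and no neighbouring groups overlapped, although the 2 KO-labelled groups lay 0.08 ± 0.072 apart. The KO-labelled minus wild-type difference was -1.27 ± 0.072 alone and -0.59 ± 0.072 with lysate. The lysate minus alone difference was -0.60 ± 0.072 in wild-type cells. The Ly6c2 minus Ly6c1 difference was 1.68 and 1.60 in KO-labelled cells with lysate, 1.62 and 1.63 in KO-labelled cells alone, 1.58 and 1.56 in wild-type cells with lysate and 1.52 and 1.49 in wild-type cells alone. It was higher in every KO-labelled than in every wild-type library, and it is not a ratio of transcript amounts, because lengths are not scaled and reads can be shared.

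Ly6i encodes a Ly6 protein known from mouse myeloid cells. Its log2 levels were 7.74 and 7.60 in KO-labelled cells with lysate, 7.91 and 7.67 in KO-labelled cells alone, 7.83 and 7.78 in wild-type cells with lysate and 8.77 and 8.69 in wild-type cells alone. Only wild-type cells alone stood apart; the next groups in the order, wild-type with lysate, KO-labelled alone and KO-labelled with lysate, each overlapped the one after it. The KO-labelled minus wild-type difference was -0.94 ± 0.096 alone and -0.14 ± 0.096 with lysate. The lysate minus alone difference was -0.12 ± 0.096 in KO-labelled cells and -0.92 ± 0.096 in wild-type cells, where it was the 11th lowest of all genes tested.

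Ly6a took another order. Its log2 levels were 10.37 and 10.42 in KO-labelled cells with lysate, 10.30 and 10.16 in KO-labelled cells alone, 10.08 and 10.18 in wild-type cells with lysate and 10.49 and 10.60 in wild-type cells alone. Wild-type cells with lysate were lowest on average and overlapped KO-labelled cells alone, while KO-labelled cells with lysate ranked below wild-type cells alone only. The KO-labelled minus wild-type difference was -0.31 ± 0.076 alone and 0.27 ± 0.076 with lysate, so Ly6a was the only member with opposite signs. The lysate minus alone difference was 0.16 ± 0.076 in KO-labelled cells and -0.41 ± 0.076 in wild-type cells. These differences were small: the alone difference was no longer past the threshold without wild-type alone replicate 2, without KO-labelled alone replicate 2 or when only the groups compared were fitted. With lysate the genotype difference was no longer past it without any 1 of the 4 lysate libraries, with a replicate block or without a mean-variance trend.

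Ly6e, an interferon-inducible member also known for its part in virus entry, had log2 levels of 13.22 and 13.27 in KO-labelled cells with lysate, 13.29 and 13.10 in KO-labelled cells alone, 13.62 and 13.50 in wild-type cells with lysate and 13.87 and 13.99 in wild-type cells alone. The order was that of Ly6c1, with the 2 KO-labelled groups overlapping and both below every wild-type library. The KO-labelled minus wild-type difference was -0.74 ± 0.078 alone and -0.31 ± 0.078 with lysate. The lysate minus alone difference was 0.05 ± 0.078 in KO-labelled cells and -0.37 ± 0.078 in wild-type cells. The lysate difference in wild-type cells was not past the threshold without wild-type alone replicate 2, and the genotype difference with lysate was not without wild-type lysate replicate 1 or either KO-labelled lysate library.

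**Figure D1:**
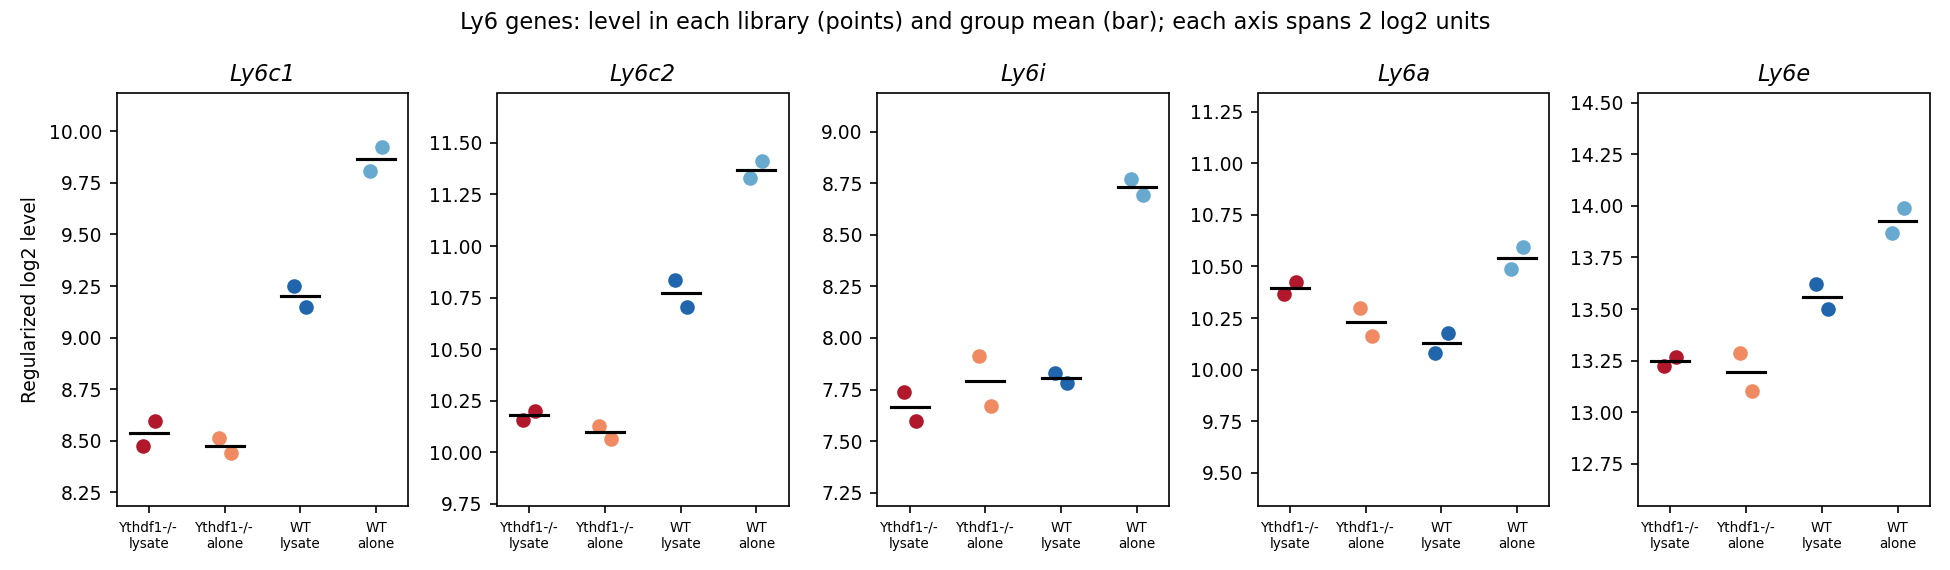
Log2 level of each Ly6 gene in every library, with groups in the order KO-labelled with lysate, KO-labelled alone, wild type with lysate and wild type alone; points are libraries and bars are group means. Wild-type cells alone are highest for all 5 genes, and for Ly6c1, Ly6c2 and Ly6e both KO-labelled groups lie below both wild-type groups.

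Set against all genes, the counts of Ly6 genes past the threshold (limma, adjusted p under 0.05 over all genes tested) were as follows, and nothing is read from them because these contrasts chose the members. Between genotypes alone, 5 of 5 were past it and lower, where 9.23% of all genes were lower and 16.2% past it in either direction. Between genotypes with lysate, 3 of 5 were past it and lower, Ly6c1, Ly6c2 and Ly6e, where 5.45% of all genes were, and Ly6a was past it and higher, where 7.44% were (12.9% in either direction). With lysate in KO-labelled cells, 0 of 5 were past it, where 15.2% of all genes were in either direction. The largest of these 5 differences was that of Ly6a, 0.16 ± 0.076. With lysate in wild-type cells, 5 of 5 were past it and lower, where 11.3% of all genes were (21.5% in either direction). The median log2 difference over the 5 genes was -0.94 between genotypes alone (0.002 over all genes), -0.31 between genotypes with lysate (-0.008), 0.059 with lysate in KO-labelled cells (-0.001) and -0.60 with lysate in wild-type cells (-0.01). Each of these comparisons shares a group of libraries with 2 of the others, so they are not independent of each other.

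The lysate difference in KO-labelled cells minus that in wild-type cells was positive for all 5 genes. It was 0.80 ± 0.14 for Ly6i, 0.73 ± 0.12 for Ly6c1, 0.68 ± 0.10 for Ly6c2, 0.58 ± 0.11 for Ly6a and 0.42 ± 0.11 for Ly6e. Ly6i, Ly6c1 and Ly6c2 were among the 13 genes past the threshold in the whole table (0.11%), and Ly6a and Ly6e were not. Nothing is read from this, because the members were chosen with these results known. The 3 calls were lost, with no change of sign, when any 1 of the 4 wild-type libraries or the 2 KO-labelled lysate libraries was left out, without a mean-variance trend and with a replicate block; that of Ly6i was also lost under a stricter filter and under other scalings.

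**Figure D2:**
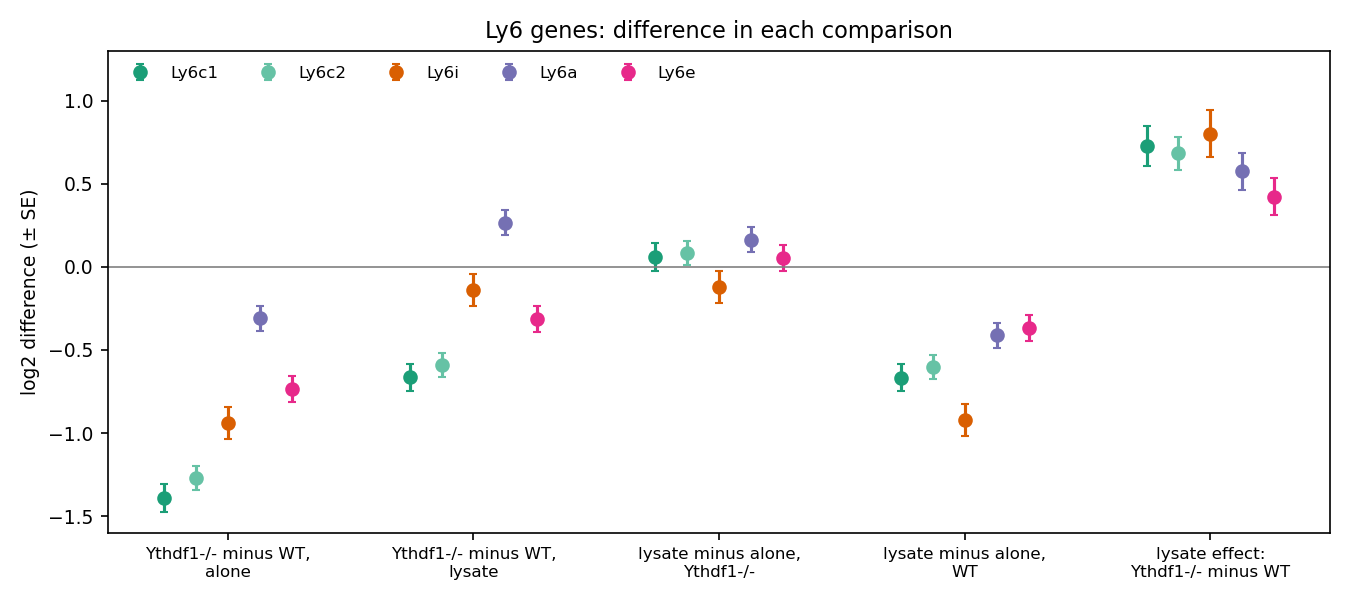
Log2 difference of each Ly6 gene in each comparison, with bars of 1 SE from the limma fit of all 8 libraries. Without lysate all 5 differences between KO-labelled and wild-type cells are negative, between -1.39 and -0.31, and with lysate in KO-labelled cells they lie between -0.12 and 0.16.

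Across the 8 libraries, Ly6c1, Ly6c2 and Ly6e varied nearly in parallel. Pearson's r was 0.999 between Ly6c1 and Ly6c2 and 0.989 between either of them and Ly6e. It was 0.875 between Ly6c1 and Ly6i, 0.453 between Ly6c1 and Ly6a and 0.50 between Ly6a and Ly6e. These are descriptions over 8 libraries in 4 groups, and group means set most of each r. The 5 genes also lie together on chromosome 15: in a stretch of 30 annotated genes around them, ordered as in GRCm38.p6, they were the only 5 with a value in the table. Ly6e lies on the plus strand and the other 4 on the minus strand.

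Genes whose pattern over the 8 libraries was most like that of each member were named by the 3 highest Pearson r. For Ly6c1 and Ly6c2 these were Lyz2, Tifab and Fgr, for Ly6e Plcg2, Tifab and Csf3r, with r between 0.991 and 0.996. Lyz2 encodes the lysozyme of macrophages and granulocytes and has a near copy, Lyz1. Fgr is a Src-family kinase of myeloid cells, Plcg2 a phospholipase that signals below immune receptors, and Csf3r the receptor for G-CSF. Tifab had log2 levels of 10.62 and 10.71 in KO-labelled cells with lysate, 10.66 and 10.58 in KO-labelled cells alone, 11.02 and 10.86 in wild-type cells with lysate and 11.24 and 11.29 in wild-type cells alone, with wild-type cells alone highest and both KO-labelled groups lowest. For Ly6i they were Smpdl3b, Agtrap and Cnnm4, with r of 0.984, 0.983 and 0.979. For Ly6a they were St3gal1, Pofut1 and Foxred2, with r of 0.963, 0.96 and 0.931. St3gal1 encodes a sialyltransferase, and its log2 levels were 11.44 and 11.46 in KO-labelled cells with lysate, 11.38 and 11.29 in KO-labelled cells alone, 11.32 and 11.29 in wild-type cells with lysate and 11.47 and 11.54 in wild-type cells alone. These genes were chosen for likeness, so their differences are not tested.

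**Figure D3:**
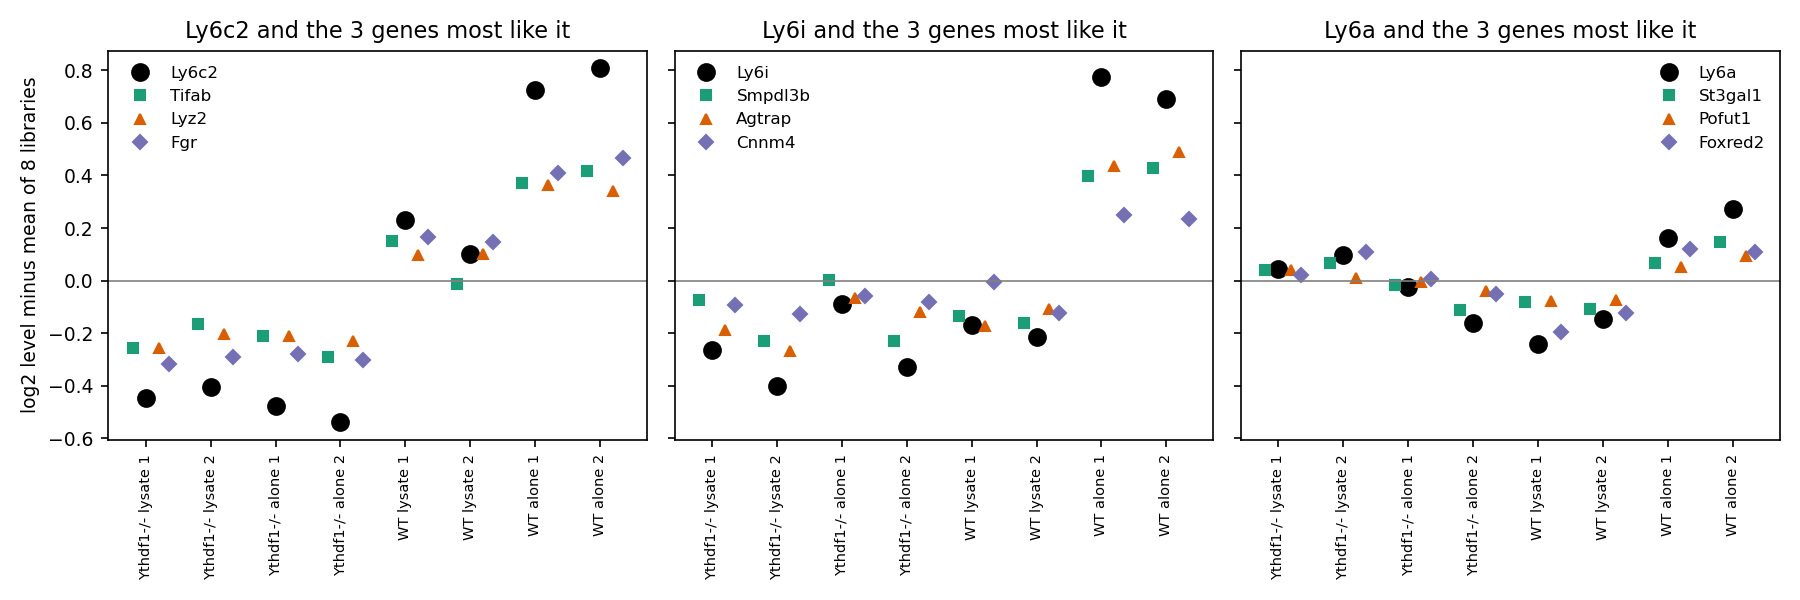
Log2 level minus the mean of the 8 libraries for Ly6c2, Ly6i and Ly6a (black circles) and the 3 genes most like each of them (coloured symbols), by library. The genes most like Ly6c2 are highest in wild-type cells alone and lowest in both KO-labelled groups, whereas those most like Ly6a are on average lowest in wild-type cells with lysate.

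Of 42 other genes listed for the Ly6 and urokinase receptor family, 5 had a value. Between genotypes alone, all 5 differences were negative and 4 of the 5 genes were past the threshold and lower, where 9.23% of all genes were. Cd177, a GPI-anchored neutrophil surface protein, had log2 levels of 6.11 and 5.96 in KO-labelled cells with lysate, 6.20 and 6.42 in KO-labelled cells alone, 7.23 and 7.02 in wild-type cells with lysate and 7.57 and 7.72 in wild-type cells alone. Both KO-labelled groups lay below every wild-type library. It fell by 1.34 ± 0.11 (SE) on the log2 scale in KO-labelled against wild-type cells alone (limma adjusted p = 7.03e-06) and by 1.09 ± 0.11 with lysate (limma adjusted p = 0.000117). With lysate in wild-type cells it fell by 0.52 ± 0.11 (limma adjusted p = 0.00529), a call that leaving out the second replicate of either wild-type group ended, and in KO-labelled cells the difference was -0.28 ± 0.11 (limma adjusted p = 0.11).

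Plaur, the urokinase receptor, had log2 levels of 11.67 and 11.72 in KO-labelled cells with lysate, 11.56 and 11.41 in KO-labelled cells alone, 11.87 and 11.74 in wild-type cells with lysate and 11.74 and 11.88 in wild-type cells alone. Both libraries of KO-labelled cells alone lay below the other 6. The genotype difference alone was -0.33 ± 0.078 (limma adjusted p = 0.0113), a call lost without wild-type alone replicate 2 or KO-labelled alone replicate 2, and that with lysate was -0.11 (limma adjusted p = 0.391). Lypd11 fell by 0.73 ± 0.10 between genotypes alone (limma adjusted p = 0.000355) and by 0.56 ± 0.10 with lysate (limma adjusted p = 0.00384), the second call being lost without KO-labelled lysate replicate 1. Lypd10 fell by 0.52 ± 0.088 alone (limma adjusted p = 0.00137) and by 0.30 ± 0.088 with lysate (limma adjusted p = 0.0406), the second call being lost without any 1 of the 4 lysate libraries, with a replicate block and with quantile normalization. Lypd10, Lypd11 and Cd59a lay near the low end of the table, where the regularized scale shrinks differences.

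Cd59a, an inhibitor of complement lysis on host cells, was highest in wild-type cells with lysate. Its log2 levels were 4.32 and 4.27 in KO-labelled cells with lysate, 4.25 and 4.06 in KO-labelled cells alone, 4.55 and 4.49 in wild-type cells with lysate and 4.11 and 4.23 in wild-type cells alone. It rose by 0.35 ± 0.09 with lysate in wild-type cells (limma adjusted p = 0.0141), a call that leaving out the first replicate of either wild-type group ended. In KO-labelled cells the lysate difference was 0.14 ± 0.09 (limma adjusted p = 0.327). None of the 5 family genes was past the threshold for the difference of the lysate effects, where the size was 0.22 ± 0.11 for Plaur and 0.24 ± 0.16 for Cd177.

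**Figure D4:**
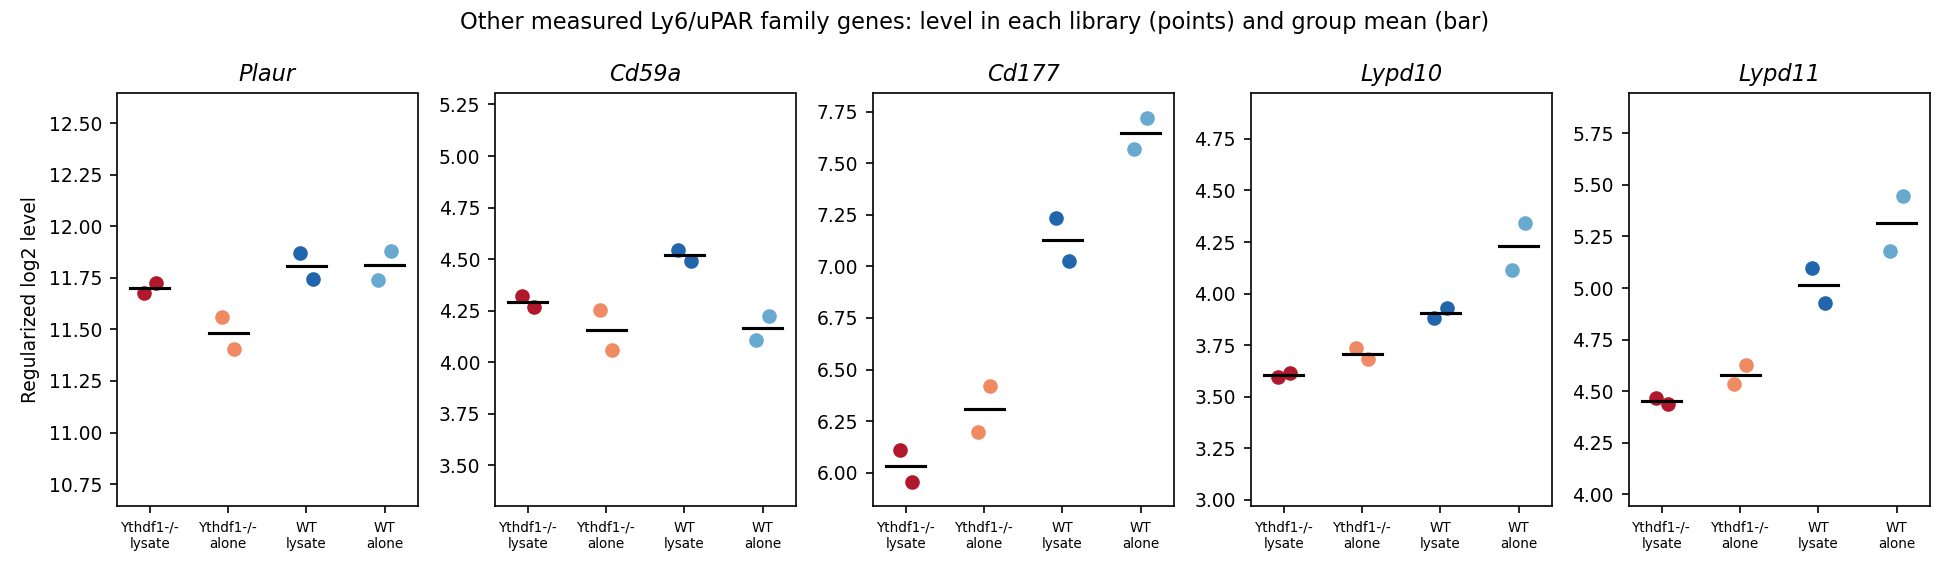
Log2 level of the 5 other measured genes of the Ly6 and urokinase receptor family in every library, with points for libraries and bars for group means, in the same group order. Cd177 and Lypd11 are lower in both KO-labelled groups than in both wild-type groups, and Cd59a is highest in wild-type cells with lysate.

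The machinery that builds and trims the GPI anchor, on which Ly6 proteins depend, had called genes in both directions. Of 34 measured genes of that list, 1 was higher and 4 were lower in KO-labelled than in wild-type cells alone, where 7.02% and 9.23% of all genes were; the list median was -0.106. With lysate the counts were again 1 higher and 4 lower, where 7.44% and 5.45% of all genes were, with a median of -0.04. Tmed10, a cargo receptor that carries GPI-anchored proteins out of the endoplasmic reticulum, fell by 0.33 ± 0.067 alone (limma adjusted p = 0.00485) and by 0.30 ± 0.067 with lysate (limma adjusted p = 0.0118). Pgap6, a GPI-specific phospholipase, rose by 0.34 ± 0.075 alone (limma adjusted p = 0.00744) and by 0.33 ± 0.075 with lysate (limma adjusted p = 0.0125). Pigu, a subunit of the transamidase that attaches the anchor, fell by 0.39 ± 0.09 with lysate (limma adjusted p = 0.0128). The lysate comparison called 2 genes higher and 1 lower in KO-labelled cells (8.28% and 6.92% of all genes), and 5 higher and 3 lower in wild-type cells (10.2% and 11.3%). Each of these counts came to 0 or 1 in at least 1 fit that left out a library; the calls of Tmed10 and Pgap6 alone were lost without wild-type alone replicate 1, and those of all 3 genes with lysate without KO-labelled lysate replicate 1.

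Interferon-stimulated genes, the wider set to which Ly6a and Ly6e belong by their known regulation, were largely higher with lysate in KO-labelled cells. There 31 of 44 rose and 2 fell (8.28% and 6.92% of all genes, with a list median of 0.371). Of the Ly6 genes 0 of 5 were past the threshold there, where 15.2% of all genes were in either direction. Ifit3 rose by 0.86 ± 0.064 (limma adjusted p = 3.08e-06) and Rsad2, which encodes the antiviral protein viperin, by 0.95 ± 0.071 (limma adjusted p = 3.08e-06). In wild-type cells 13 rose and 5 fell (10.2% and 11.3% of all genes; median 0.107), with Rsad2 up by 0.81 ± 0.071 (limma adjusted p = 8.29e-06), while all 5 Ly6 genes were lower. The contrast between the lists was not tested, and nothing is read from the calls of the Ly6 genes. The 31 came to 22 without KO-labelled lysate replicate 2, and the 5 falls in wild-type cells to 2 without wild-type alone replicate 2.

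Between genotypes alone, the interferon list and the Ly6 genes pointed the same way. Of the 44 genes, 32 fell and 2 rose in KO-labelled cells (9.23% and 7.02% of all genes), with a median of -0.359. Irf7, a transcription factor that amplifies interferon production, fell by 0.73 ± 0.071 (limma adjusted p = 2.9e-05), Zbp1, a sensor of left-handed nucleic acid helices, by 0.64 ± 0.069 (limma adjusted p = 5.63e-05), and Oasl2 by 0.60 ± 0.061 (limma adjusted p = 4.13e-05). With lysate 8 fell and 3 rose (5.45% and 7.44% of all genes; median -0.113), and none of these calls held without KO-labelled lysate replicate 1. Mx1, an antiviral GTPase, was among the 3, at 0.36 ± 0.067 (limma adjusted p = 0.00453).

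Markers of the cells that carry Ly6C moved with the Ly6 genes. Of 19 monocyte markers, 17 fell and 0 rose in KO-labelled against wild-type cells alone (9.23% and 7.02% of all genes; median -0.694), and 11 fell and 0 rose with lysate (5.45% and 7.44%; median -0.373). Hp, which encodes haptoglobin, fell by 1.45 ± 0.079 alone (limma adjusted p = 3.52e-07). The lysate comparison called 2 markers higher and 0 lower in KO-labelled cells (8.28% and 6.92% of all genes), and 1 higher and 9 lower in wild-type cells (10.2% and 11.3%). The 2 came to 0 without KO-labelled lysate replicate 1. Hp fell by 0.94 ± 0.079 with lysate in wild-type cells (limma adjusted p = 6.64e-06). Summed on the linear scale and expressed as log2, the 19 markers lay between 15.33 and 15.34 in KO-labelled cells with lysate, between 15.3 and 15.32 in KO-labelled cells alone, at 15.56 in wild-type cells with lysate and at 15.76 in wild-type cells alone. That order is the order of Ly6c1 and Ly6c2, and the part of monocyte number in the Ly6 differences was not tested. The 11 genes lower with lysate came to 7 without KO-labelled lysate replicate 1, and the 9 in wild-type cells to 6 without wild-type lysate replicate 2.

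Markers of neutrophils also stood apart by genotype label. Of 13 measured markers, 12 fell and 0 rose in KO-labelled against wild-type cells both alone (9.23% and 7.02% of all genes; median -1.33) and with lysate (5.45% and 7.44%; median -1.218). Ngp, a granule protein, fell by 1.55 ± 0.073 alone (limma adjusted p = 1.26e-07) and by 1.64 ± 0.073 with lysate (limma adjusted p = 6.08e-08). The lysate comparison called 1 higher and 2 lower in KO-labelled cells (8.28% and 6.92% of all genes), and 1 higher and 4 lower in wild-type cells (10.2% and 11.3%). The 2 came to 0 without KO-labelled lysate replicate 1, and the 4 to 1 without wild-type alone replicate 2. Lcn2, which encodes the iron-scavenging protein lipocalin, fell by 1.33 ± 0.077 alone (limma adjusted p = 3.91e-07). The summed level of the 13 lay between 13.4 and 13.5 in KO-labelled cells with lysate, 13.38 and 13.4 in KO-labelled cells alone, 14.44 and 14.58 in wild-type cells with lysate and 14.54 and 14.6 in wild-type cells alone. Unlike Ly6c1, that sum overlapped between wild-type cells with and without lysate. The defining neutrophil gene Ly6g, a neighbour of the Ly6 genes, had no value. The part of neutrophil number in the genotype differences of the Ly6 genes was not tested. Some measured genes are counted in more than 1 list. Cd177 is in the family and monocyte lists, Csf1r in the monocyte and macrophage lists, and Ciita in the interferon and dendritic cell lists. Flt3 is in the dendritic and stem cell lists, Irf8 in both dendritic cell lists, and Bst2 in the interferon and plasmacytoid lists. Kit and Gata2 are in the stem cell and mast cell lists.

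Some conventional dendritic cell markers ran against the Ly6 genes between genotypes. Of 12 measured, 5 rose and 1 fell in KO-labelled against wild-type cells alone (7.02% and 9.23% of all genes), and 7 rose and 0 fell with lysate (7.44% and 5.45%). The 7 came to 0 without KO-labelled lysate replicate 1. Batf3, a transcription factor of cross-presenting dendritic cells, rose by 0.84 ± 0.13 alone (limma adjusted p = 0.000779), and Zbtb46 by 0.42 ± 0.078 (limma adjusted p = 0.00259). The 1 that fell alone was Itgax, at -0.33. Among those not called there were H2-Ab1, Cd74, Ciita and Clec9a, at -0.036, 0.021, -0.018 and -0.035. The summed level of the 12 overlapped between genotypes alone, between 17.34 and 17.44 in KO-labelled and 17.24 and 17.37 in wild-type cells. With lysate it was 17.01 in KO-labelled cells and between 16.92 and 16.93 in wild-type cells. The sum is taken on the linear scale, and Cd74 weighs most in it. In cells alone Cd74 averaged 16.489 in KO-labelled and 16.468 in wild-type cells. Batf3, which averaged 10.874 and 10.035 there, hardly moves the sum. The lysate comparison called 7 lower and 0 higher in each genotype, where 6.92% of all genes were lower in KO-labelled and 11.3% in wild-type cells. These came to 3 in KO-labelled cells without KO-labelled lysate replicate 2 and to 4 in wild-type cells without wild-type alone replicate 2. The lysate difference of H2-Ab1 was -0.55 ± 0.073 in KO-labelled cells (limma adjusted p = 0.000327) and -0.54 ± 0.073 in wild-type cells (limma adjusted p = 0.000274). Of 7 measured stem and progenitor markers, the cells for which Ly6a is a surface marker, 2 rose and 1 fell in KO-labelled cells alone (7.02% and 9.23% of all genes). Kit, the stem cell factor receptor, fell by 0.36 ± 0.072 with lysate in KO-labelled cells (limma adjusted p = 0.00479) and by 0.35 ± 0.072 in wild-type cells (limma adjusted p = 0.00428).

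Genes of the melanoma cells marked the lysate libraries. All 6 measured melanocyte genes rose with lysate in each genotype, where 8.28% of all genes did in KO-labelled and 10.2% in wild-type cells. Among them Dct, a pigment enzyme, rose by 1.31 ± 0.087 in KO-labelled cells (limma adjusted p = 2.09e-06) and 1.13 ± 0.087 in wild-type cells (limma adjusted p = 3.04e-06). The summed level lay between 16.65 and 16.68 in KO-labelled cells with lysate, 16.04 and 16.1 in KO-labelled cells alone, 16.84 and 16.85 in wild-type cells with lysate and 16.15 and 16.19 in wild-type cells alone. The list includes Gpnmb, which macrophages also express and which makes up nearly all of that sum. Its group means with lysate were 16.64 in KO-labelled and 16.83 in wild-type cells. Between genotypes with lysate, 2 of the 6 genes were called higher and 0 lower (7.44% and 5.45% of all genes). These were Tyrp1, at 0.38 ± 0.092 (limma adjusted p = 0.0177), and Dct, at 0.29 ± 0.087 (limma adjusted p = 0.0468). Gpnmb was at -0.18 ± 0.066 (limma adjusted p = 0.0835). The part of tumour RNA in the Ly6 levels was not tested, and the calls of the Ly6 genes are not read against those of the melanocyte genes.

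Other cell types were thinly covered. Of 13 measured macrophage markers, 4 fell and 0 rose between genotypes alone (9.23% and 7.02% of all genes), while the lysate comparison in wild-type cells called 4 higher and 2 lower (10.2% and 11.3%). Marco, a scavenger receptor, fell by 0.83 ± 0.087 in KO-labelled cells alone (limma adjusted p = 4.59e-05). All 3 measured eosinophil markers fell in KO-labelled against wild-type cells alone (9.23% of all genes), and 1 fell with lysate (5.45%). Prg2 and Siglecf of that list lay near the low end of the table, at 4.70 and 4.55 in KO-labelled cells alone. Between genotypes alone, 1 of 6 plasmacytoid dendritic cell markers was called higher, where 7.02% of all genes were. There 0 of 3 mast cell and basophil markers were called, and 1 of 2 T and NK cell markers was called lower (9.23% of all genes). These counts are too small to read against the share of all genes. None of the 6 B cell and 7 erythroid markers had a value.

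**Figure D5:**
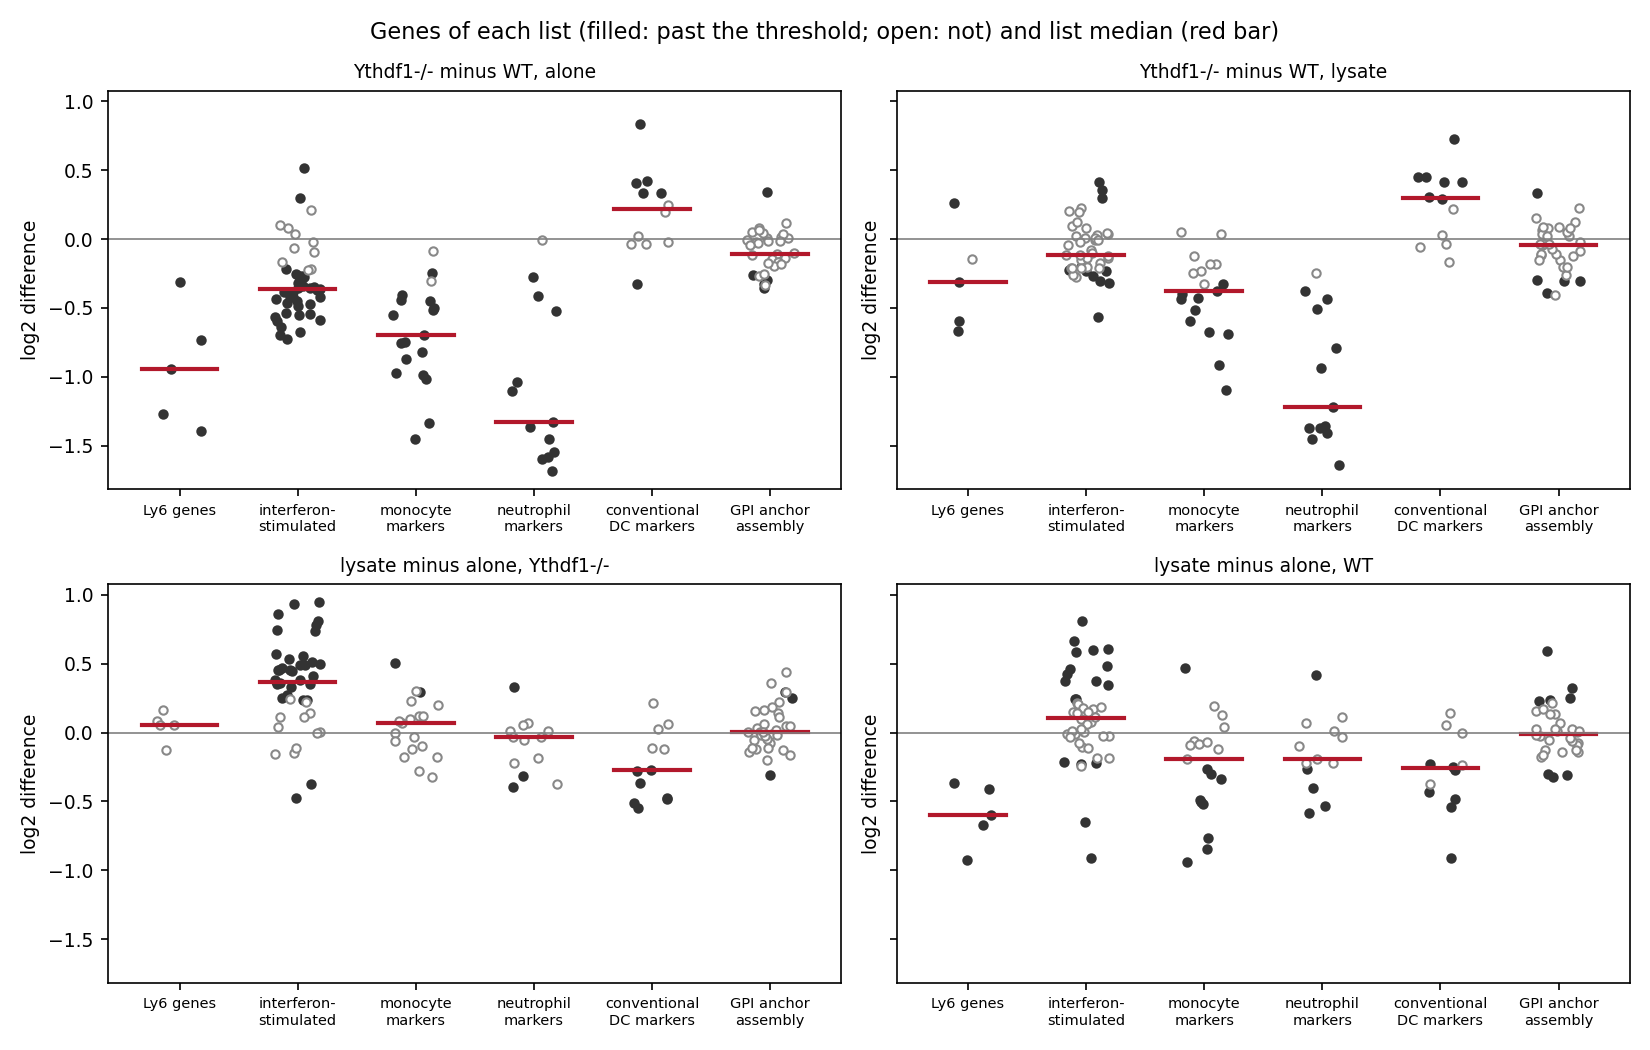
Log2 differences of the genes of 5 lists and the Ly6 genes in each comparison, with a point for each gene (filled where past the threshold, open where not) and a bar for the list median. Between genotypes alone the Ly6, interferon-stimulated, monocyte and neutrophil medians are below 0, at -0.94, -0.359, -0.694 and -1.33, while with lysate in KO-labelled cells the interferon median is 0.371 and the Ly6 median 0.059.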

How the data were processed

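The series holds 12 samples, of which the 8 RNA-seq libraries have values in the deposited table. Libraries were made with a stranded poly(A) kit, per the labels' protocols. The authors' deposited log2 values were read as regularized logarithms of read counts per Entrez gene, an inference from the table's name and from DESeq2 in the submitters' processing notes. STAR, deepTools and mm9 are named there too, without versions. No source used here gives the counting tool or its strand setting. This scale shrinks differences of genes with few reads, and with no counts the depth is unknown, so no counting error could be given.

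Titles gave each library's group and number. Symbols were matched in the RefSeq annotation of GRCm38.p6 (11744 of 11786 identifiers), which is not the submitters' build, so no gene coordinates are given; promoter windows carry GRCm38.p6 coordinates and exist in the table for 2 of the 5 members. Coding sequences came from GRCm38 reference transcripts, 1 a gene, and were aligned with Biopython 1.88.

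A gene was tested when some group averaged 4 or more (11785 genes; 1 was removed) with limma 3.58.1 in R 4.3.3 on group means of all 8 libraries, with a mean-variance trend, two-sided; p-values were adjusted over all these genes by Benjamini-Hochberg and called under 0.05. Residual and prior degrees of freedom were 4 and 9.33, and the fit was tested on simulated data. All adjusted p-values are from it. Differences are the group named first minus the second. The members and all gene lists were chosen with earlier results of these data known. Named genes were the 5 members, Ythdf1, every measured gene of the wider family, up to 4 genes of each list with the smallest p in a comparison, and the 3 genes most like each member; some results under this rule are not reported here. Alternatives were a replicate block, 2 other filters, 2 other scalings, 2 variance models, a fit restricted to the compared groups and each library left out; a crossed replicate block was added after seeing the data. A group left with 1 library is assumed to vary like the others. Figures were drawn with matplotlib 3.10.9 in Python 3.11.15.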

Additional observations from a re-analysis of the deposited data

Results flagged for a closer look

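The difference of the lysate effects, KO-labelled minus wild type, was past the threshold for 3 members and for 2 genes of the lists, each named because its response to lysate differed between the genotype labels. It was 0.801 for Ly6i, 0.727 for Ly6c1 and 0.682 for Ly6c2. These members were chosen with these results known, so nothing is read from their calls. Hp, the haptoglobin gene of the monocyte list, had 0.76 ± 0.11 (SE, limma adjusted p = 0.026), with lysate minus alone at -0.18 in KO-labelled cells and -0.94 in wild-type cells. Irf7 of the interferon list had 0.684 ± 0.10 (limma adjusted p = 0.026), with 0.45 in KO-labelled cells and -0.23 in wild-type cells. The call of Hp was lost without any 1 of the 4 wild-type libraries or the 2 KO-labelled lysate libraries, and that of Irf7 without any 1 of these except wild-type alone replicate 1. Both calls, and those of the 3 members, were also lost with a replicate block and without a mean-variance trend. No cause was tested.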

How the results depend on the processing

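No difference of a member or named gene changed sign as a called value. The replicate numbers did not pair the libraries: the deviations of same-numbered libraries correlated at 0.259 and -0.0483 for lysate in wild-type and KO-labelled cells, and at -0.611 and 0.0991 for genotype alone and with lysate. With a replicate block the difference of the lysate effects held 1 gene instead of 13 and 0 members instead of 3. With a crossed block, added after seeing the data, the counts were 2919 genes for lysate in KO-labelled cells (1792 as reported), 2638 for genotype with lysate (1519) and 54 for the difference of the effects. Without a mean-variance trend that difference held 1 gene and 0 members, and with a filter at 6 it held 8 genes. When only the groups compared were fitted, genotype alone gave 1196 genes (1915). Leaving out 1 library gave 564 to 2275 genes for lysate in KO-labelled cells, 1031 to 3152 for lysate in wild-type cells (2534), 1174 to 1865 for genotype alone, 193 to 2057 for genotype with lysate and 0 to 32 for the difference of the effects. The members past the threshold then numbered 0, 4 to 5, 4 to 5, 2 to 4 and 0 to 4 in the same order. Among the other named genes, 3604 values under alternatives had the same status as in the main fit, 180 lost a call and 46 gained one. The 3604 include values called in neither fit, so they are not a count of calls kept. Without counts, a depth limit could not be set.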
